A study of Mus musculus with 3 samples.

Results

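The replication-dependent histone genes were taken as the protein-coding rows whose symbol opens with Hist1h, Hist2h, Hist3h or Hist4h. There were 67 of them among 25759 genes, of which 21963 were protein-coding. They comprised 6 genes for the linker histone H1, 18 for H2A, 18 for H2B, 12 for H3 and 13 for H4. The Hist1 cluster on chromosome 13 held 54 of them, the Hist2 cluster on chromosome 3 held 10, the Hist3 cluster on chromosome 11 held 2, and Hist4h4 stood alone on chromosome 6.

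These genes supply the histones that package newly copied DNA, and they are transcribed mainly in S phase. Their transcripts usually carry no poly(A) tail. They end shortly after a conserved stem-loop, which is bound by the stem-loop binding protein SLBP and cut by a complex that contains U7 snRNA. Some members also give longer, polyadenylated transcripts, mostly in cells that have stopped dividing. The libraries were made from poly(A)-selected RNA, so transcripts without a tail are captured poorly and the counts cannot be read as the total histone mRNA of the cells.

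TFR cells, the regulatory T cells of the follicle, express Foxp3 together with CXCR5, a receptor that draws them into B cell follicles. They were sorted as B220-CD4+BlimpGFP+CXCR5+GITRhi cells from spleen and mLN (mesenteric lymph nodes) on day 10 after mice received 125 µg NP-KLH in alum, with a boost on day 7. The library labelled N came from Nfatc1fl/fl.Prdm1gfp/+.FIC mice, αA from Nfatc1caaA.Prdm1gfp/+.FIC mice and PαA from Nfatc1caaA.Prdm1gfp/fl.FIC mice. FIC is a Cre recombinase made from the Foxp3 locus, and it acts on floxed Nfatc1 in N, switches on a constitutively active NFATc1/αA in αA and PαA, and acts on 1 floxed Prdm1 allele in PαA. All 3 genotypes carried FIC and a Prdm1gfp reporter allele, and none was a control without Cre. There was 1 library per genotype, and the age of the mice and the number pooled are not given in the sources used here. αA against N set active NFATc1/αA against floxed Nfatc1, and PαA against αA addressed the loss of Blimp-1, the product of Prdm1. PαA against N joined these changes. No library came from mice with NFATc1 unaltered in Tregs, so its gain and its loss cannot be told apart. The comparisons share libraries, so each ratio is given on its own.

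The library totals behind the RPKM (reads per kilobase of exon, scaled to the library total) were between 25465829 and 29726219 reads. Nfatc1 had an RPKM of 63.6 in N, 62.9 in αA and 32.4 in PαA, which goes against the labels of N as deficient and of αA and PαA as overexpressing. N, αA and PαA are therefore names of libraries throughout, and every direction rests on these labels. A count over the whole gene also takes reads from outside a floxed part. Prdm1 had an RPKM of 25.6, 24.9 and 10.0. All 8 T cell and Treg markers exceeded an RPKM of 5 in each library. They summed to an RPKM of 1542 in N, 1484 in αA and 1023 in PαA. Each of them was lowest in PαA, Cxcr5 only narrowly, at 47.6 beside 48.3 in N. Marker genes of other cells were also read. The 6 erythroid markers summed to an RPKM of 573 in N, 2409 in αA and 2153 in PαA, and all were detected. The 8 neutrophil and myeloid markers found in the files summed to 251, 136 and 209, with S100a9 and Retnlg at 0 in αA, Elane and Mpo at 0 in αA and PαA, and S100a9 at an RPKM of 15.1 in N and 11.5 in PαA. The 3 plasma cell markers summed to 45.2, 60.4 and 101, most of it Jchain, and Tnfrsf17 was at 0 in PαA. The 6 B cell markers summed to 20.5, 14.8 and 16.03, the 4 germinal centre B cell markers to 18.4, 13.2 and 11.4, and the 4 CD8 and NK markers to 12.4, 18.7 and 14.3, with none at 0. With 1 library per genotype no test is given and no p-value. Intervals are exact 95% Clopper-Pearson intervals for ratios and Poisson intervals for levels. The reads were amplified by PCR without molecular identifiers, and the intervals cover counting error only.

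The sequences below are shown because they decide which reads can be assigned to a histone gene and where a transcript can end. The stem-loops are printed with up to 7 bases on each side, in GRCm38 and read along the strand of the gene, with the stem and loop in capitals.
Hist1h2ap, chr13:21833026-21833051, minus strand: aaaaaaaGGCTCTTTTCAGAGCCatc
Hist1h1c, chr13:23739505-23739534, plus strand: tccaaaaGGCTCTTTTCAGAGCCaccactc
Hist3h2ba, chr11:58949342-58949371, plus strand: acccaaaGGCTCTTTTCAGAGCCaccttcc
Hist1h4i, chr13:22040959-22040988, minus strand: acttaaaGGCCCTTTTTAGGGCCaccacaa
Hist1h4n, chr13:21831791-21831820, minus strand: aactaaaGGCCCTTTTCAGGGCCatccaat

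The first 59 coding bases, the length of 1 read, are shown for Hist1h2ap and Hist1h2ah, the pair of H2A genes with the highest RPKM in N. Bases that differ are in capitals.
Hist1h2ap, chr13:21833417-21833475, minus strand: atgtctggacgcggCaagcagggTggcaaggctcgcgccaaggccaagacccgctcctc
Hist1h2ah, chr13:22035494-22035552, minus strand: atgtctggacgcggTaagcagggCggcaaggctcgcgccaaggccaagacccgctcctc
Over 384 aligned coding bases these genes differed at 3, C15T, T24C and C150G, counted from 1 at the A of the start codon of Hist1h2ap, and were 99.2% identical. A read from most of the coding sequence therefore matched both.

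A stem-loop with a perfect 6-base stem and a 4-base loop was found in the GENCODE M21 model of 44 of the 67 genes. The form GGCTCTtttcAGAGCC occurred in 26 of them and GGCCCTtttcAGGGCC in 7. The model ended within 100 bases of the stem-loop in 22 genes and ran on past it in 22. A polyadenylation signal (AATAAA or ATTAAA) lay in the last 50 bases of 11 of the 22 models that ran on and of 2 of the 22 that did not. Hist1h2ap, with the most reads of all, ended 3 bases after its stem-loop, and Hist1h1c, Hist3h2ba and Hist1h4i ran on for 840, 169 and 330 bases to a polyadenylation signal. Of the 23 models without a stem-loop, 4 had such a signal, among them Hist2h2be with a model of 2620 bases.

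Promoters from RefSeq (GRCm38.p6, 250 bases before to 50 after the start) were matched for 61 genes. The letters TATAAA on either strand were present in 55.7% of them, against 13.6% of all 32851 promoters. CCAAT was present in 85.2% against 37.4%, in every matched H1, H2A, H2B and H3 promoter but in 3 of 12 H4 promoters. The octamer ATTTGCAT was present in 7 of 18 H2A and 6 of 16 H2B promoters, in none of the other classes, and in 1.74% of all promoters. A match is a description of the letters and not of a bound site. The 100 bases before the start, taken as the further upstream of the RefSeq and GENCODE starts, are shown for an H2A, an H2B and an H4 gene, with CCAAT and TATAAA in capitals on either strand.
Hist1h2ap, chr13:21833508-21833607, minus strand: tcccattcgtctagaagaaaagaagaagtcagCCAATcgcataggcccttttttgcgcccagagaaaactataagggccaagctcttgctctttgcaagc
Hist3h2ba, chr11:58948811-58948910, plus strand: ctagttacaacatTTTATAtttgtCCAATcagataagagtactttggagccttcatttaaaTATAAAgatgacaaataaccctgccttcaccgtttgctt
Hist1h4i, chr13:22041363-22041462, minus strand: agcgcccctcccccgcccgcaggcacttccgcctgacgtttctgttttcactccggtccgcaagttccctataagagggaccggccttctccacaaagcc

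Few of the histone genes were abundant in these libraries. An RPKM above 5 was reached by 7 of 67 in N (10.4%), 6 in αA (8.96%) and 8 in PαA (11.9%), against 30.6%, 28.6% and 27.7% of the other protein-coding genes. In all, 10 genes passed this level in at least 1 library. The median RPKM over the 67 genes was 0.353, 0.204 and 0.552. Hist1h1t, Hist1h2aa, Hist1h2af, Hist1h2an, Hist1h2ba, Hist1h2bf, Hist1h2br, Hist1h3g and Hist1h4k had 0 reads in every library, and 2 more genes, Hist1h3f and Hist1h4f, had at most 3. Of the 56 genes with over 3 reads in some library, 28 had 0 reads in another. At this depth a count of 0 allows up to 3 reads, which is an RPKM of 0.209 in N to 0.244 in PαA for Hist1h2ap.

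Most histone reads were not counted as unique. The rule by which the files count a read as unique is not given in the sources used here. Of the exon reads of the 67 genes, 39.4% were unique in N, 40.3% in αA and 39.8% in PαA, against 83.9%, 82.7% and 80.6% of all exon reads. The unique share differed by class. It was 84.5% to 85.6% for H1, 82.8% to 91.5% for H2B, 56.4% to 73.7% for H4, 23.9% to 37.6% for H3 and 14.98% to 18.7% for H2A. The classes also differed in how alike their genes are. All 13 H4 genes encode the same protein of 103 residues from 12 different coding sequences, the 11 H3 genes with 1 exon encode 2 proteins, and the 6 H1 genes encode 6. The 18 H2A genes encode 9 proteins from 16 coding sequences, and the 13 H2B genes with 1 exon encode 10. The unique share did not follow the number of proteins, as H2A had the lowest share.

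The share of the 59-base words of a gene model that lie at 1 place among all GENCODE transcripts went with the share of its reads that were unique. Over the 45 genes with at least 20 reads in all, Pearson's r was 0.82 and Spearman's rho 0.80, from genes of the same 3 libraries that also share reads with each other. Hist1h2ap had 7.08% of its words at 1 place and shared 394 of 424 with Hist1h2ao. Its reads were 18.6% unique. It also shared words with 24 genes outside the histone set, and 47.9% of its words lay within the set only. For Hist2h2aa1 and Hist2h2aa2 that share was 3.79% and 0%. Total reads of such genes, and sums that hold them, can therefore include reads that also match genes outside the set. How many do so was not tested. Hist3h2a went against the pattern, with 98.4% of its words at 1 place and 0 unique among 1092 reads. Its model starts at the same base as that of Trim17, which had 22, 12 and 20 exon reads in N, αA and PαA. Whether the overlap sets this count was not tested.

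**Figure D1:**
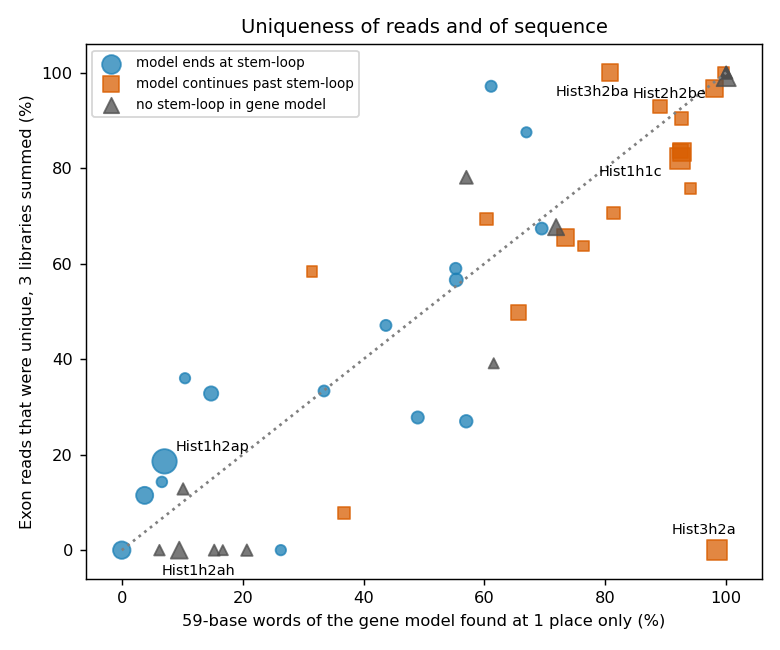
Each point is 1 of the 45 histone genes with at least 20 exon reads over the 3 libraries, with the share of its 59-base words found at 1 place (x axis, %) and the share of its reads that were unique (y axis, %). Point area grows with the number of reads, symbols give where the gene model ends, and the dotted line marks equal shares. Hist1h2ap, with 6300 reads, sits near the lower left, and Hist3h2a stands apart at the lower right.

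Summed over the 67 genes, the RPM (exon reads scaled to the library total, with no division by length) was 155 in N (95% interval 150 to 159), 160 in αA (155 to 165) and 218 in PαA (212 to 223). PαA was the highest and the other libraries overlapped. The log2 ratio of αA over N was 0.046 (-0.01 to 0.11), that of PαA over αA 0.44 (0.39 to 0.50), and that of PαA over N 0.49 (0.43 to 0.55). Unique reads gave 0.077, 0.43 and 0.51. Total reads can include some that also match genes outside the 67, and their part in the sums was not tested. Hist1h2ap alone held 38.3%, 42.6% and 48.4% of the histone reads. Without it, the ratios were -0.058 (-0.14 to 0.02), 0.29 (0.21 to 0.37) and 0.23 (0.16 to 0.31). The median of all genes past an RPKM of 5 was -0.14, -0.05 and -0.19 on the same scale, and between 0.02 and 0.04 with the TMM factors of edgeR, which moved the summed histone ratios to 0.21, 0.51 and 0.72. In bulk RNA, fewer cells of a type and less RNA per cell cannot be told apart. The summed plasma cell markers were also highest in PαA, and the summed T cell and Treg markers lowest there, as given above. The part of either in the histone sum was not tested.

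**Figure D2:**
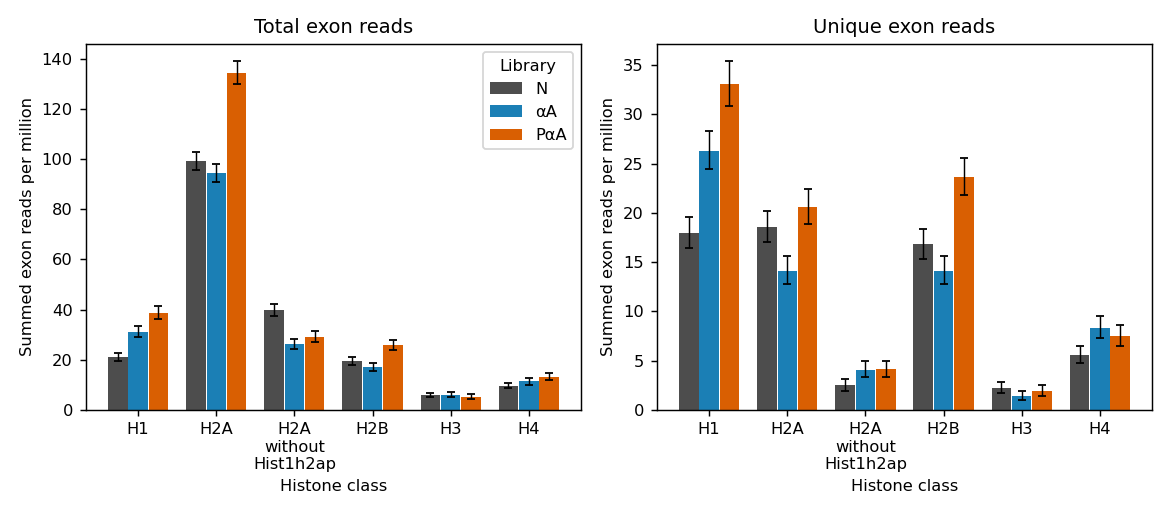
Summed RPM of exon reads (y axis, linear) are shown for each histone class in N, αA and PαA, with total reads on the left and unique reads on the right on a different scale, and Poisson 95% intervals as error bars. H1 rises from N over αA to PαA in both panels, from 20.99 to 38.8 for total reads, while H2A without Hist1h2ap is highest in N for total reads and lowest in N for unique reads.

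Summed over the 6 linker histone genes, reads were higher in αA than in N and higher again in PαA, while single genes differed in their order. Linker histones bind the DNA between nucleosomes and help to fold chromatin. Their summed RPM was 20.99 in N (19.4 to 22.7), 31.2 in αA (29.1 to 33.3) and 38.8 in PαA (36.4 to 41.3), with no overlap of the intervals. The log2 ratio of αA over N was 0.57 (0.42 to 0.72), that of PαA over αA 0.32 (0.18 to 0.45), and that of PαA over N 0.89 (0.74 to 1.03). Unique reads gave 0.55, 0.33 and 0.88. H1 was not alone in the rise from αA to PαA. For PαA over αA the H2A sum had 0.51 (0.44 to 0.59) and the H2B sum 0.60 (0.42 to 0.77), and for αA over N they had -0.07 and -0.18. The summed plasma cell markers, given above, had the same order of libraries, and their part in this result was not tested.

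Hist1h1c (ENSMUSG00000036181, chromosome 13 from 23738808 to 23740367), which encodes the subtype H1.2, had the most reads of the class, 444 in N, 503 in αA and 451 in PαA. These are an RPKM of 9.57, 11.8 and 11.4, and 79.8% to 84.0% of the reads were unique. Its log2 ratio for αA over N was 0.31 (0.12 to 0.49) and for PαA over αA -0.060 (-0.25 to 0.13), the latter across 0. Hist1h1e (H1.4, chromosome 13 from 23620629 to 23622558) was read 116, 212 and 309 times, for an RPKM of 2.02, 4.03 and 6.29. The log2 ratio for αA over N was 1.00 (0.66 to 1.34), for PαA over αA 0.64 (0.38 to 0.90), and for PαA over N 1.64 (1.32 to 1.96). Unique reads gave 0.92, 0.69 and 1.62. Hist1h1d (H1.3) had 51, 85 and 190 reads over a model of 7425 bases, an RPKM of 0.231, 0.420 and 1.00, with a log2 ratio for PαA over N of 2.12 (1.67 to 2.60), and 96.1% to 96.8% of these reads were unique. Both Hist1h1d and Hist1h1e were thus lowest in N and highest in PαA. Hist1h1a had 6, 37 and 21 reads, all unique, and Hist1h1b had 7, 12 and 17, all unique. The testis form Hist1h1t had 0 in every library.

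Hist1h2ap (ENSMUSG00000094777, chromosome 13 from 21833026 to 21833507), which encodes a canonical H2A, had the highest RPKM of all members. Its exon reads numbered 1763, 1854 and 2683 in N, αA and PαA, for an RPKM of 123 (117 to 129), 141 (135 to 148) and 219 (210 to 227). By total reads the log2 ratio for αA over N was 0.20 (0.10 to 0.29) and for PαA over N 0.83 (0.74 to 0.92). Its unique reads were 478, 274 and 419, with log2 ratios of -0.68 (-0.90 to -0.46) and 0.033 (-0.16 to 0.23). Total and unique reads therefore differed in direction for αA over N, and the gain in PαA over N lay in reads not counted as unique. For PαA over αA they gave 0.63 and 0.71. Reads not counted as unique can match genes outside the histone set as well as within it.

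Hist1h2ah (ENSMUSG00000069302, chromosome 13 from 22035164 to 22035568) was read 351, 0 and 3 times in N, αA and PαA, an RPKM of 29.2, 0 and 0.291. No read was unique in any library. Against a limit of 3 reads it was at least 107-fold lower in αA than in N, and its log2 ratio for PαA over N was -6.65 (-8.93 to -5.09). Summed with Hist1h2ap, whose coding sequence is nearly the same, the RPM was 71.1 in N (68.1 to 74.2), 68.1 in αA (65.0 to 71.2), and 105 in PαA (102 to 110). The sum of the pair had a log2 ratio for αA over N of -0.063 (-0.15 to 0.03). In N, Hist1h2ap held 1763 of the 2114 reads of the pair and Hist1h2ah 351, while in αA all 1854 were counted for Hist1h2ap. Hist1h2ah shared the most words with Hist1h2ad, 302 of 347. The H2A genes without Hist1h2ap had a summed ratio for αA over N of -0.60 (-0.74 to -0.47) from total reads and 0.71 (0.27 to 1.16) from unique reads. How reads are shared out between the pair was not tested.

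Other H2A genes were read at lower levels. Hist2h2aa1 and Hist2h2aa2 lie in inverted copies on chromosome 3. The RPKM of Hist2h2aa1 was 5.57, 9.77 and 8.18 and that of Hist2h2aa2 was 11.5, 9.25 and 8.85, and 0% to 12.3% of their reads were unique. Nearly all words of Hist2h2aa1 and Hist2h2aa2 also lie in genes outside the histone set, so their reads can be shared with those genes. Together they had 277, 289 and 241 reads, with a summed log2 ratio for αA over N of 0.19 (-0.056 to 0.43) and for PαA over N of 0.022 (-0.23 to 0.28), although Hist2h2aa1 taken alone had 0.81 for αA over N. Hist3h2a had 405, 322 and 365 reads, none unique, and its log2 ratio was -0.20 (-0.42 to 0.01) for αA over N and 0.28 (0.06 to 0.50) for PαA over αA. Hist1h2ac, with 92.9% of its reads unique, had 4, 53 and 28 reads. It stayed under an RPKM of 1 in every library and was chosen for mention after its values were seen.

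Among the H2B genes, Hist3h2ba (ENSMUSG00000056895, chromosome 11 from 58948920 to 58949533) was lowest in αA and highest in PαA. Its reads numbered 104, 37 and 177, every one unique, with an RPKM of 5.70 (4.66 to 6.90), 2.21 (1.56 to 3.05) and 11.3 (9.71 to 13.1). No intervals overlapped. The log2 ratio for αA over N was -1.36 (-1.95 to -0.81) and for PαA over αA 2.36 (1.84 to 2.91). The summed plasma cell markers were also highest in PαA. The summed neutrophil and myeloid markers, mostly Lyz2 at an RPKM of 214, 134 and 184, were lowest in αA but highest in N. Erythroid markers were lowest in N. Their part in this result was not tested. Hist2h2be, the most abundant H2B gene by reads, had 311, 242 and 301, of which 311, 235 and 301 were unique. Its RPKM was 3.99, 3.39 and 4.51 and its log2 ratio of PαA over αA was 0.41 (0.16 to 0.66). Hist1h2bc had 90, 78 and 104 reads, of which 45, 61 and 78 were unique. Its log2 ratio for αA over N was -0.080 (-0.54 to 0.37) from total and 0.56 (-0.015 to 1.15) from unique reads, on opposite sides of 0 with both intervals across it. For PαA over αA total reads gave 0.51 (0.07 to 0.95).

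H2A and H2B genes often lie head to head with a shared promoter region. There were 12 such pairs with starts within 500 bases. Hist1h2ap had 1763, 1854 and 2683 reads, while Hist1h2br, 235 bases away, had 0 in every library. Hist2h2be had 311, 242 and 301, while Hist2h2ac, 238 bases away, had 13, 5 and 31. Hist1h2bc had 90, 78 and 104 and its neighbour Hist1h2ac 4, 53 and 28. Part of such gaps goes with the length of the models. In RPKM, Hist2h2be had 3.99, 3.39 and 4.51 and Hist2h2ac 0.841, 0.353 and 2.34. In the other 9 pairs no gene had over 43 reads in a library except Hist1h2ah, whose neighbour Hist1h2bk had 0, 25 and 0. Many of these reads are not unique.

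H3 genes were the least abundant class, with an RPM of 5.82 in N (4.98 to 6.75), 5.98 in αA (5.10 to 6.98) and 5.26 in PαA (4.41 to 6.23). These intervals overlapped, and the log2 ratio of PαA over N was -0.15 (-0.48 to 0.19), or 0.08 with the TMM factors. Unique reads, 65, 39 and 48 in all, turned the direction of the other comparisons. For αA over N the H3 ratio was 0.04 from total and -0.61 (-1.22 to -0.02) from unique reads, and for PαA over αA it was -0.19 and 0.40. Hist2h3c1 had 56, 60 and 51 reads and Hist1h3c had 11, 31 and 21. Hist2h3c2, a near copy of Hist2h3c1, had 39, 12 and 0, with 4, 0 and 0 unique.

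H4 genes summed to an RPM of 9.59 in N (8.51 to 10.8), 11.3 in αA (10.1 to 12.6) and 13.2 in PαA (11.9 to 14.7). From unique reads the RPM was 5.52, 8.33 and 7.46, with αA and not PαA the highest. The H4 log2 ratio for αA over N was 0.24 from total and 0.60 from unique reads, and for PαA over αA 0.23 and -0.16. Hist1h4i (ENSMUSG00000060639, chromosome 13 from 22040636 to 22041362) was read 79, 155 and 90 times, for an RPKM of 3.66 (2.89 to 4.56), 7.83 (6.64 to 9.16) and 4.86 (3.91 to 5.98). αA stood highest, at a log2 ratio of 1.10 (0.70 to 1.51) against N, and 1.03 (0.53 to 1.54) from unique reads. Hist1h4n (ENSMUSG00000069305, chromosome 13 from 21831767 to 21832196) had 43, 0 and 82 reads, of which 9, 0 and 32 were unique. It shared 308 of its 372 words with Hist1h4m, which had 0, 4 and 21 reads. Against a limit of 3 reads Hist1h4n was at least 13.1-fold lower in αA than in N and at least 29.2-fold higher in PαA than in αA. Hist4h4 had 38, 52 and 32 reads. Genes that encode the same H4 protein were thus highest in different libraries.

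**Figure D3:**
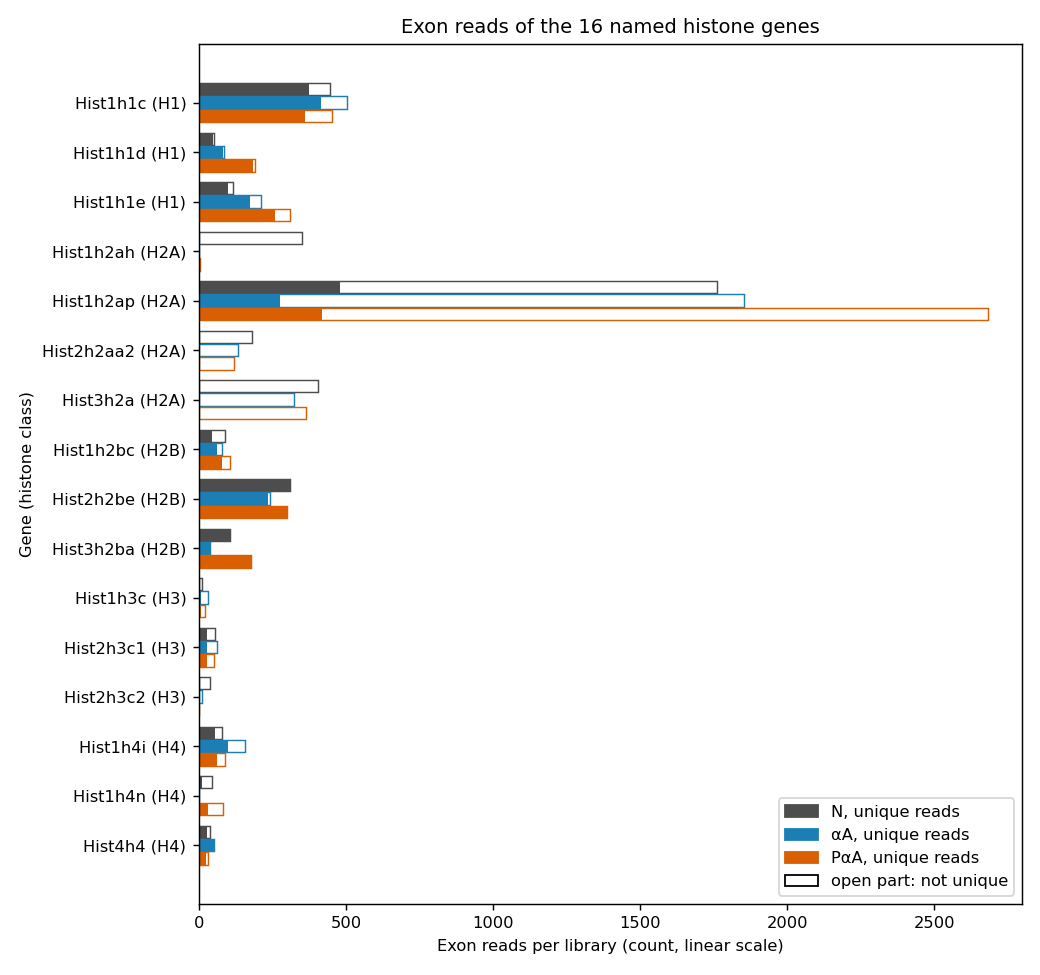
Exon reads (x axis, count on a linear scale) are shown for 16 histone genes in each library, with unique reads as filled bars and the other reads as the open part. Hist1h2ap reaches 2683 reads in PαA with 419 unique, while the bars of Hist2h2be and Hist3h2ba are almost wholly filled.

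Few histone genes passed the filter of an RPKM above 5 in either library and a ratio above 2. For αA over N, 8 of the 67 could be tested. Hist1h4i was higher in αA, 1 of 8 against 1.28% of 6887 genes, and Hist1h2ah and Hist3h2ba were lower, 2 of 8 against 2.74%. Hist1h2ah rests on reads that are not unique. For PαA over αA, Hist1h4n and Hist3h2ba were higher, 2 of 9 against 2.14% of 6530 genes, and 0 were lower, against 2.14%. For PαA over N, Hist1h1e and Hist1h4n were higher, 2 of 9 against 2.58% of 6940 genes, and Hist1h2ah was lower, 1 of 9 against 7.8%. With the TMM factors, 4 were higher and 1 lower in that comparison, the added genes being Hist1h2ap and Hist3h2ba at 1.06 and 1.22 on the log2 scale. With 8 or 9 genes tested, each gene makes up 12.5% or 11.1% of them, and the shares were not tested against those of all genes. Hist1h4n fell within 2-fold for PαA over N with TPM, at 0.96. With 1 added to both RPKM, 0 were higher and 2 lower for αA over N, and 1 was higher and 1 lower for PαA over N.

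Over the 40 genes with at least 20 reads in some library, the interval of the log2 ratio lay above 0 in 16 genes, below 0 in 7 and across 0 in 9 for PαA over N. For αA over N its place was above 0 for 11 and below 0 for 5, and for PαA over αA above 0 for 12 and below 0 for 5. A further 6 to 11 genes in each comparison had 0 reads in 1 of the libraries. Of these, 5 were higher and 6 lower for αA over N, 6 and 3 for PαA over αA, and 3 and 3 for PαA over N. Over the 12146 genes with as many reads, the interval lay above 0 in 20.7% and below 0 in 52.6% for PαA over N, in 18.2% and 50% for αA over N, and in 26.6% and 38.8% for PαA over αA. The histone genes thus had members on both sides of 0 in every comparison, with more intervals above 0 than below. For PαA over αA the share above 0, 12 of 40, was close to the 26.6% of all genes, and the share below 0, 5 of 40, was under the 38.8%. These counts use total reads, and most histone reads were not unique. Whether the shares differ was not tested. The intervals use the library totals. On these, the median of all genes past an RPKM of 5 was -0.14 for αA over N, -0.05 for PαA over αA and -0.19 for PαA over N. It was between 0.02 and 0.04 with the TMM factors, and the counts were not repeated with them.

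**Figure D4:**
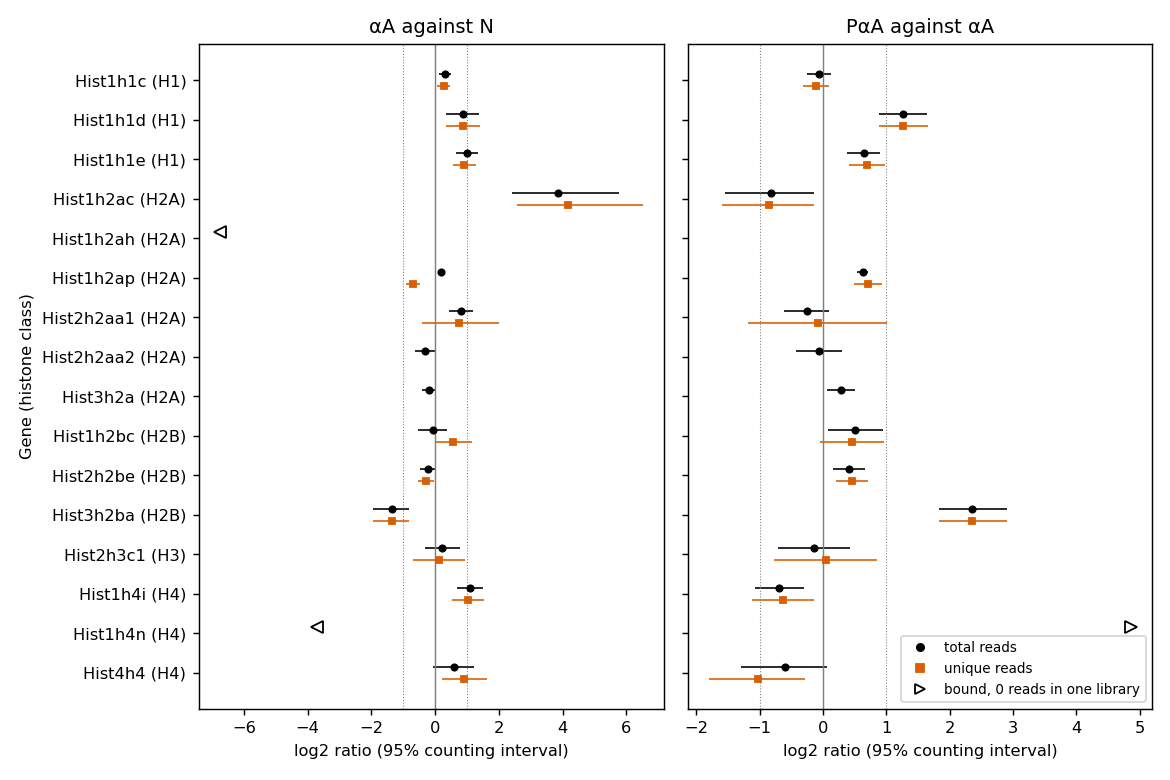
log2 ratios (x axes) with 95% counting intervals are shown for the 16 histone genes with at least 50 reads in some library, for total reads (black circles) and unique reads (orange squares), with αA against N on the left and PαA against αA on the right. Open triangles are bounds where a library had 0 reads, and dotted lines mark 2-fold. Hist3h2ba lies left of the line at -1 in the first panel and right of the line at 1 in the second, and for Hist1h2ap the circle and the square lie on opposite sides of 0 in the first panel.

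Of 14 genes that make and process histone transcripts, 10 could be tested for PαA over N, and 0 were higher and 1 lower past 2-fold. Their median log2 ratio was -0.17, beside -0.19 for all genes, and 0.06 with the TMM factors. For αA over N, 0 of 10 passed 2-fold in either direction. Their median log2 ratio was -0.13, beside -0.14 for all genes, and 0.03 with the TMM factors. Slbp, which encodes the protein that binds the stem-loop, had an RPKM of 26.5, 29.5 and 28.1, and its log2 ratio for αA over N was 0.15 (0.07 to 0.24). Npat, a coactivator of histone genes, had an RPKM of 3.44, 2.28 and 1.91 and its log2 ratio for PαA over N was -0.85. Casp8ap2 (FLASH), needed for stem-loop processing, had an RPKM of 2.37, 0.858 and 0.612, and its log2 ratio for PαA over N was -1.95. Upf1, which takes part in histone mRNA decay, had 12.1, 6.12 and 3.74. It was the 1 of the 10 genes past both the RPKM of 5 and 2-fold for PαA over N, with a log2 ratio of -1.69 (-1.85 to -1.54). Among the genes below that level Zfp473, with 40, 6 and 5 reads, also had a ratio beyond 2-fold, -2.78 on the log2 scale.

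Histone variants that are made also outside S phase, mostly from polyadenylated transcripts, covered a wide range of levels over 11 genes. The RPKM of H2afz was 824, 408 and 495, that of H3f3a was 233, 242 and 266, and that of H3f3b was 211, 195 and 190. H2afz and H3f3a exceeded Hist1h2ap in each library and H3f3b did so in N and αA. At the other end H1fx stayed under an RPKM of 1 and H2afy2 had 0, 7 and 0 reads. H2afz, which encodes H2A.Z, had -1.01 (-1.05 to -0.98) for αA over N on the log2 scale and was the 1 of 9 tested variants past 2-fold in that comparison. With the TMM factors it was within 2-fold, and 5.84% to 6.78% of its reads were unique, which gave -0.95. H2afx, which is phosphorylated at DNA breaks, had an RPKM of 43.9, 35.0 and 33.5. H1f0, the linker histone of resting cells, had 48.9, 33.7 and 24.8, and a log2 ratio of -0.98 (-1.07 to -0.89) for PαA over N. It was thus lowest in PαA, where the summed Hist1 linker genes were highest. Of the 9 variants tested, 8 had a ratio below 0 for αA over N, against 68.4% of all genes, with a median of -0.27 beside -0.14 for all genes. With the TMM factors the medians were -0.11 and 0.02.

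Histone chaperones, which carry new histones to DNA, had a median of -0.10 over 15 genes for αA over N on the log2 scale, with 0 of them past 2-fold, and a median of 0.06 with the TMM factors. Asf1b had an RPKM of 11.3, 11.6 and 10.6. Supt16, a subunit of the FACT complex, had 20.9, 13.3 and 9.30 and was the 1 gene past 2-fold for PαA over N, with a log2 ratio of -1.17 (-1.27 to -1.07).

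Of 20 S phase genes tested for PαA over N, 17 had a ratio below 0, against 66.6% of all genes, the median was -0.51 beside -0.19 for all genes, and 0 passed 2-fold. With the TMM factors the medians were -0.28 and 0.04. For αA over N, 19 of 20 had a ratio below 0, against 68.4% of all genes, with a median of -0.16, or 0.001 with the TMM factors. Mcm2, a subunit of the replicative helicase, had an RPKM of 29.8, 28.4 and 22.1, and Pcna, the sliding clamp, had 153, 152 and 163. Of 15 G2 and M phase genes only Top2a and Ccnb2 reached an RPKM of 5 in N or PαA. Top2a, which untangles DNA, had 10.5, 4.87 and 3.47, a log2 ratio of -1.60 (-1.75 to -1.45) for PαA over N. Ccnb2, a cyclin of mitosis, had 8.37, 6.21 and 9.82, a log2 ratio of 0.23 in the same comparison. Mki67, a marker of cycling cells, had 2.68, 0.399 and 0.519. The share of cycling cells was not measured.

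**Figure D5:**
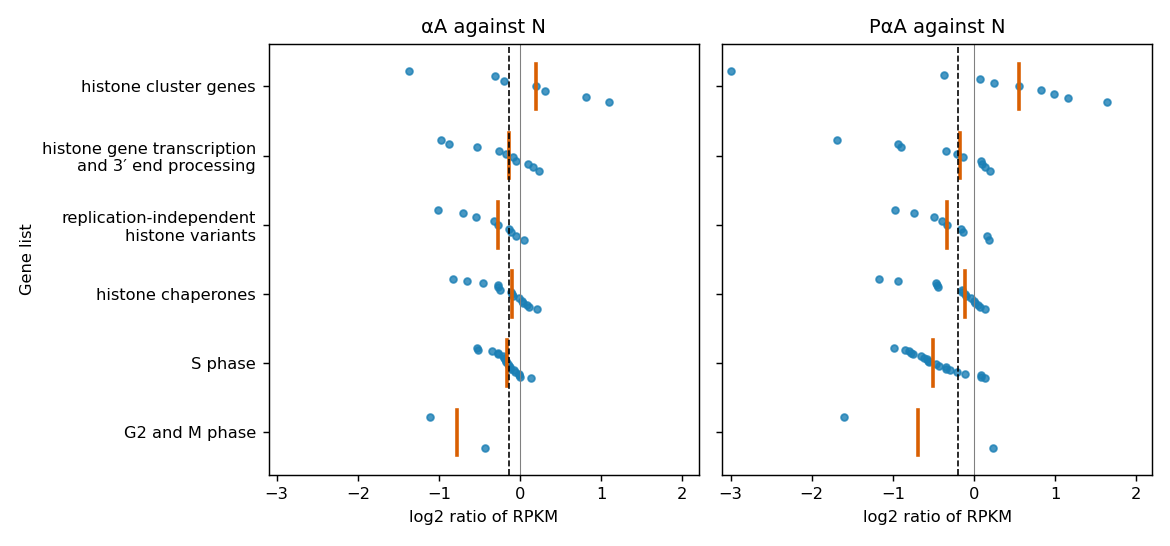
Points are log2 ratios of RPKM (x axes) of the genes with an RPKM above 5 in either library, grouped by list, for αA against N on the left and PαA against N on the right. Orange bars are list medians, the dashed line is the median of all genes (-0.14 and -0.19), and Hist1h2ah, at -6.65 on the right, is drawn at -3. The histone cluster genes have medians of 0.20 and 0.55 over 7 and 9 genes, and S phase genes lie mostly left of the dashed line on the right. On the left 8 histone genes passed the level. Hist1h2ah, with 351 reads in N and 0 in αA, has no ratio there and is in neither the points nor the median.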

How the data were processed

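The authors sorted TFR cells of 3 genotypes, prepared 1 poly(A) library each, sequenced them as 59-base single reads and, after adapter trimming, mapped and counted these on GRCm38 in CLC Genomics Workbench with default settings. The annotation release is not given in the sources used here, but the regions of all 67 genes equal those of GENCODE M21. The deposited counts are total exon reads, unique exon reads and intron reads, not normalized, together with deposited RPKM and TPM values written with a decimal comma. Total reads include reads that match several places. The 3715 genes with an exon length of 0 were not used.

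Library totals of 29726219, 27239921 and 25465829 for N, αA and PαA follow from RPKM, exon length and reads. Ratios were formed per library total, with exact 95% Clopper-Pearson intervals. The filter was an RPKM above 5 in either library and a ratio above 2. Where a library had 0 reads, 3 reads were taken as the limit. Genes named are members with an RPKM above 5 and mostly unique reads, the 3 with most reads in each class, members past 2-fold, and fixed controls of each list; other members named were chosen after their values were seen. Members and lists were chosen with earlier results of these data known. Library scaling was repeated with TMM and median-of-ratios factors (edgeR 4.0.16, R 4.3.3). The filter and intervals were tried on simulated Poisson counts, with changes set only in genes at high levels. Shared reads, PCR copies and differences between mice were not simulated. The simulation therefore does not bear on histone genes at low levels or with few unique reads. Python 3.11.15, pandas 2.3.3, numpy 2.4.6, scipy 1.17.1 and matplotlib 3.10.9 were used. Stem-loops and 59-base words were read from GENCODE M21 transcripts and promoters from RefSeq, matched by strand and a start within 500 bases.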

Additional observations from a re-analysis of the deposited data

Results flagged for a closer look

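Intron reads were not used in any comparison, and with no control samples they were read against the limit of 3 reads that a count of 0 allows. Hist1h2be, an H2B gene with 4 exons whose region overlaps that of Hist1h1e, had 17, 57 and 43 intron reads in N, αA and PαA, against 22, 10 and 5 exon reads. Hist1h2bc had 15 intron reads in αA and 8 in PαA, against 78 and 104 exon reads, and 0 in N. Hist1h2bq had 4 intron reads in PαA and 0 exon reads there. No difference between libraries was tested.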

How the results depend on the processing

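No paired analysis was possible because each genotype has 1 library. Leaving out a replicate was not possible for the same reason. The number of histone genes past 2-fold was 3 between αA and N, 2 between PαA and αA and 3 between PαA and N. With TPM it was 7 and 4 in the αA with N and PαA with αA comparisons, and with unique reads 1, 1 and 1. With TPM it stayed at 3 for PαA with N, 2 of them shared, and with 1 added to both RPKM it was 2 in each comparison. With an RPKM above 1 it was 20 of 31, 15 of 29 and 18 of 32 genes tested. With no level other than 3 reads it was 36 of 53, 36 of 54 and 34 of 54. The share of all genes passing at these settings is not given here, so these counts are not read as a result about histone genes. Above 1.5-fold the number of histone genes was 5 between PαA and αA and 5 between PαA and N. The TMM factors and the median-of-ratios factors gave 5 each between PαA and N. The summed log2 ratio between αA and N was 0.046, but 0.21 with TMM, 0.22 with median-of-ratios, -0.075 with TPM, -0.043 as a sum of RPKM and -0.058 without Hist1h2ap, so its direction depended on the scaling and on this 1 gene. Between PαA and αA the value of 0.44 became 0.51, 0.52, 0.35, 0.52 and 0.29 under the same settings. Between PαA and N the value of 0.49 became 0.72, 0.73 and 0.28 with TMM, median-of-ratios and TPM and 0.23 without Hist1h2ap. The removal of Hist1h2ap was chosen after seeing the data. The direction of the PαA sums was the same under each setting tried. Of the class sums, unique reads turned the direction of H3 for αA with N and PαA with αA and of H4 for PαA with αA, and both sets of factors turned that of H2A for αA with N and of H3 for PαA with N. Causes of these shifts were not tested. Genes under about 20 reads have wide intervals, and a difference between mice cannot be told from one between libraries.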
